A study of Mus musculus with 9 samples.

Results

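Fatty acid binding proteins (FABPs) are small cytosolic carriers of long-chain fatty acids. The 4 members described here were Fabp3, Fabp4, Fabp5 and Fabp7, out of 19938 genes measured in cultured prostate mesenchyme of the fetal mouse. They were chosen by their measured log2 signals in these same arrays, because Fabp7 and Fabp5 had different dose patterns, so their differences between groups are given as a description with no test. A gene with several probesets (sets of array probes read as one feature) is represented by its brightest, averaged over the 9 arrays.

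The cells were mesenchymal cells of the urogenital sinus, the tissue that forms the prostate, taken from male CD-1 fetuses on gestation day 17 and used at the first passage. All cultures spent 3 days in medium with charcoal-stripped serum, which is depleted of steroid hormones, and 690 pM dihydrotestosterone (DHT), an androgen that is not converted to estrogen. They then received ethanol vehicle (for which the labels give conflicting percentages), 10 pM estradiol (E2) or 100 pM E2 for 4 days, with DHT present in every group. Each group had 3 replicate samples, each hybridized to 1 Affymetrix Mouse Gene 1.0 ST array, and the comparisons ask which transcripts differ in level between these low doses of E2. The stock is outbred, and the sources used here do not say whether the replicates came from separate cultures or how many fetuses were pooled, so the errors and p-values below cover only the scatter among these 9 samples, part or all of which can be technical.

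FABPs hold fatty acids in solution inside the cell and carry them to membranes, mitochondria and the nucleus. Some of them hand ligands to the peroxisome proliferator-activated receptors (PPARs), nuclear receptors that switch on genes of lipid handling. Fabp3 is the heart and muscle form, Fabp4 the form of fat cells and macrophages, Fabp5 the epidermal form, which is also made by macrophages and endothelium, and Fabp7 the brain form, known from radial glia. E2 acts through estrogen receptors, whose DNA site is built from the core GGTCA and its reverse complement.

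The promoters of Fabp7 and Fabp3 are shown because the promoter set used here had entries for these genes and none for Fabp4 or Fabp5. They were not chosen by dose pattern, although Fabp7 had the widest and Fabp3 the narrowest range of group means of the 4 members. Both are RefSeq sequences of build GRCm38.p6, cover the 250 bases before the annotated start on the plus strand, and are written 5′ to 3′. The windows are chr10:57784673-57784922 for Fabp7 and chr4:130308488-130308737 for Fabp3. Capitals mark the core GGTCA read on either strand.
Fabp7: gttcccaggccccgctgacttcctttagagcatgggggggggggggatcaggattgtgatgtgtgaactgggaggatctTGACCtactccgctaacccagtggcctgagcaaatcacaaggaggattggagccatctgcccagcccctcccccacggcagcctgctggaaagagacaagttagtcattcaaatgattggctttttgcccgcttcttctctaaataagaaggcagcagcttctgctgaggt
Fabp3: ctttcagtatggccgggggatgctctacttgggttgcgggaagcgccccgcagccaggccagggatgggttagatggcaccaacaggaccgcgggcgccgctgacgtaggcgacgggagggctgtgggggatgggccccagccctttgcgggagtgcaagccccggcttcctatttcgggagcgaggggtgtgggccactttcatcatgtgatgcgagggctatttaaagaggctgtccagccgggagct
The Fabp7 window held the core at 1 place, as TGACC on the printed strand, beginning 171 bases before the start. The Fabp3 window held it at 0 places. Of 32851 promoter windows of the same length, 35.2% held GGTCA on 1 strand or the other, so its presence is common. Neither window held the full palindrome GGTCANNNTGACC, found in 0.0639% of windows, nor AGGTCANAGGTCA, a direct repeat of the kind bound by PPARs, found in 0.0335%. Both strands were searched, and both longer motifs contain the core. The GC content was 54.8% for Fabp7 and 64.8% for Fabp3. These matches describe letters only and do not show binding.

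Fabp7 was lowest with vehicle, intermediate with 10 pM E2 and highest with 100 pM E2. Its log2 signal was 4.34, 4.36 and 4.27 on the vehicle arrays. It was 4.43, 4.46 and 4.46 with 10 pM E2. It was 4.76, 4.72 and 4.54 with 100 pM E2. The 3 groups formed 3 separate bands, so that no array of one dose overlapped with any array of another. The group means were 4.32 ± 0.048 for vehicle, 4.45 ± 0.019 for 10 pM and 4.67 ± 0.12 for 100 pM (SD, n = 3 each). The third 100 pM array was the nearest of its group to the 10 pM arrays. The difference between 100 pM E2 and vehicle was 0.35 ± 0.058 on the log2 scale (SE of the limma fit), a ratio of 1.27. That between 10 pM and vehicle was 0.13 ± 0.058, a ratio of 1.09, and that between 100 pM and 10 pM was 0.22 ± 0.058, a ratio of 1.17. Fabp7 lay in the dimmest 30% of the genes by mean signal, where background light takes up more of the signal and a log2 difference can understate a change in RNA. The table holds no detection calls, so it is not shown that the Fabp7 signal stood above background.

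Fabp5 had another shape, with its highest signal at the middle dose. Its log2 signal was 8.88, 8.86 and 8.97 on the vehicle arrays. It was 9.08, 9.12 and 9.09 with 10 pM E2. It was 9.00, 8.83 and 8.96 with 100 pM E2. All 3 of the 10 pM arrays lay above all 6 arrays of the other groups, and the vehicle and 100 pM arrays overlapped. The means were 8.91 ± 0.060, 9.10 ± 0.021 and 8.93 ± 0.086 in order of dose (SD, n = 3 each). The difference between 10 pM E2 and vehicle was 0.19 ± 0.051 (SE), a ratio of 1.14. From 10 pM to 100 pM E2 the difference was -0.17 ± 0.051, a ratio of 0.888. Between 100 pM E2 and vehicle it was 0.02 ± 0.051, smaller than its error.

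**Figure D1:**
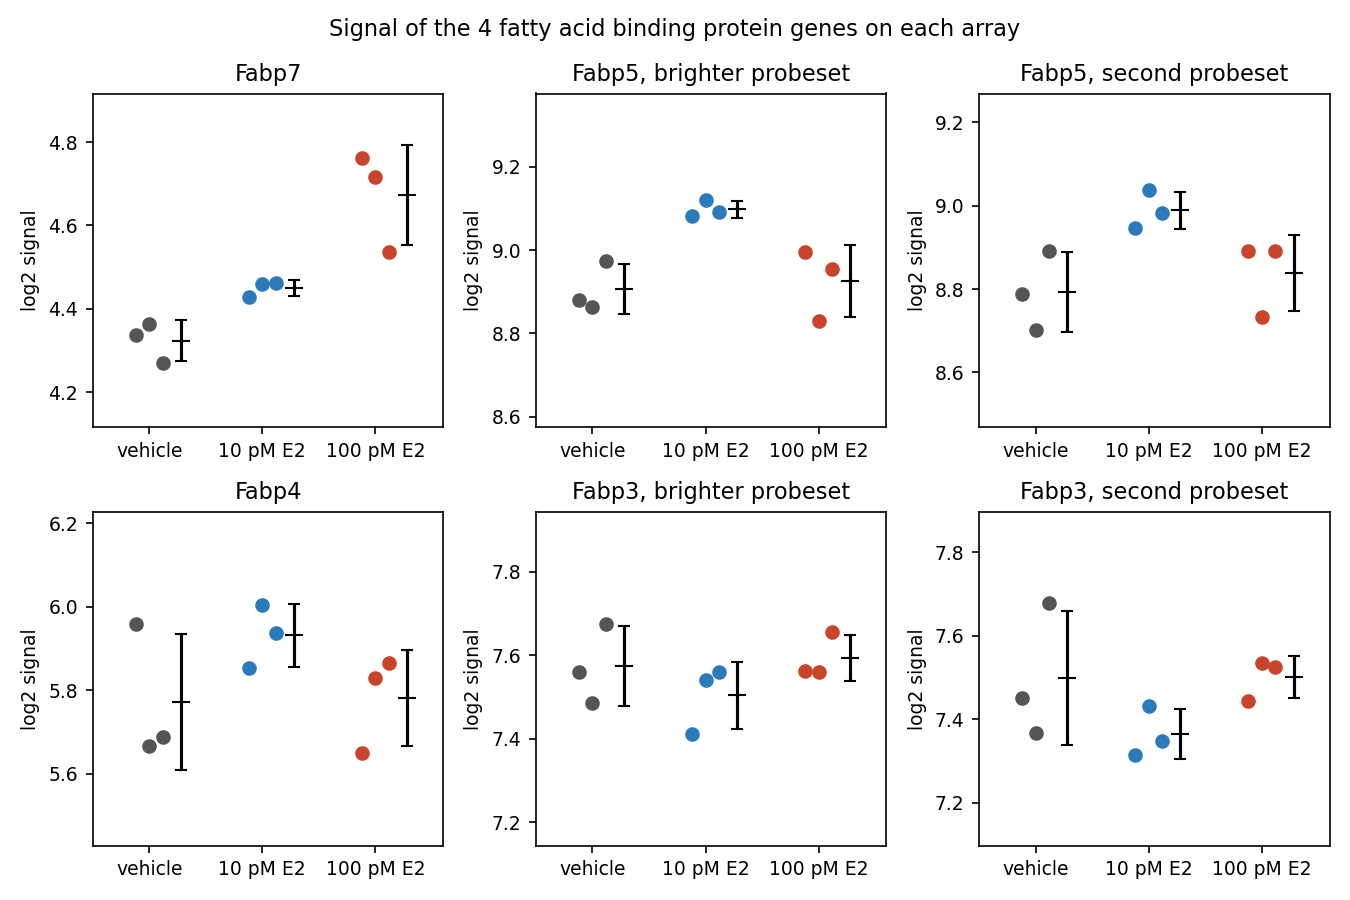
Log2 signal of the 6 probesets of the 4 FABP genes on each of the 9 arrays, by dose of E2, with points for arrays and bars for group means ± SD (n = 3). Fabp7 rises in steps from a vehicle mean of 4.32 to a 100 pM mean of 4.67, and both Fabp5 probesets have their 3 highest arrays in the 10 pM group.

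The shapes of both genes can be put as 1 value, the 10 pM mean minus the midpoint of the vehicle and 100 pM means. This value was 0.18 for Fabp5, whose 10 pM mean stood above both other means. It was -0.05 for Fabp7, whose 10 pM mean stood between the others and nearer to vehicle. These values restate the choice of the genes and carry no test.

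Fabp4, the fat cell form, followed the order of Fabp5 with more scatter. Its log2 signal was 5.96, 5.67 and 5.69 with vehicle. It was 5.85, 6.01 and 5.94 with 10 pM E2. It was 5.65, 5.83 and 5.87 with 100 pM E2. The groups overlapped in all 3 pairings. Vehicle array 1 was as high as the 10 pM arrays, and 100 pM array 3 lay just above 10 pM array 1. The means were 5.77 ± 0.16, 5.93 ± 0.076 and 5.78 ± 0.12 (SD, n = 3 each). The difference between 10 pM E2 and vehicle was 0.16 ± 0.088 (SE), a ratio of 1.12. That between 100 pM and vehicle was 0.01 ± 0.088, and that between 100 pM and 10 pM was -0.15 ± 0.088.

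Fabp3, the heart form, varied least. Its log2 signal was 7.56, 7.49 and 7.68 with vehicle. It was 7.41, 7.54 and 7.56 with 10 pM E2. It was 7.56, 7.56 and 7.66 with 100 pM E2. The vehicle arrays overlapped with both E2 groups, and the 100 pM arrays lay just above the 10 pM arrays. The means were 7.57 ± 0.096, 7.50 ± 0.081 and 7.59 ± 0.055 (SD, n = 3 each). The difference between 100 pM and 10 pM E2 was 0.09 ± 0.060 (SE), a ratio of 1.06. Against vehicle it was -0.07 ± 0.060 at 10 pM and 0.02 ± 0.060 at 100 pM.

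The background of these groups was taken from all 19938 genes. Between 100 pM E2 and vehicle the arrays of 1 member of 4, Fabp7, did not overlap, against 12.5% of all genes. Between 10 pM E2 and vehicle those of 2 of 4, Fabp7 and Fabp5, did not overlap, against 5.93%. Between 100 pM and 10 pM E2 those of 3 of 4, Fabp7, Fabp5 and Fabp3, did not overlap, against 12.3%. Nothing is read from these counts or from the ranks by size that follow, because the genes were selected on the same values. By size, 1.43% of all genes had a larger difference than Fabp7 between 100 pM E2 and vehicle. Between 10 pM E2 and vehicle 2.18% had a larger difference than Fabp5, 4.02% a larger one than Fabp4 and 8.23% a larger one than Fabp7. For Fabp3 the share was 25.7% there and 78.0% between 100 pM E2 and vehicle.

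The ranges of the group means, highest minus lowest, ordered the members as Fabp7 (0.35), Fabp5 (0.19), Fabp4 (0.16) and Fabp3 (0.09). All of these are differences on the log2 scale. Signals of different probesets are not set against each other, since probes differ in how brightly they bind.

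Fabp5 and Fabp3 each had a further probeset named by that gene alone. The other Fabp5 probeset read 8.79, 8.70 and 8.89 with vehicle, 8.95, 9.04 and 8.98 with 10 pM E2, and 8.89, 8.73 and 8.89 with 100 pM E2. Again the 10 pM arrays lay above the other 6. Its differences were 0.20 ± 0.064 between 10 pM and vehicle, -0.15 ± 0.064 between 100 pM and 10 pM, and 0.04 ± 0.064 between 100 pM and vehicle (SE). The other Fabp3 probeset read 7.45, 7.37 and 7.68 with vehicle, 7.31, 7.43 and 7.35 with 10 pM E2, and 7.44, 7.54 and 7.53 with 100 pM E2. Its differences were -0.13 ± 0.079 between 10 pM and vehicle and 0.14 ± 0.079 between 100 pM and 10 pM, in the same order as the brighter probeset. Vehicle array 3 was the highest of its group in both Fabp3 probesets and in both Fabp5 probesets.

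The numbering of probesets on this array follows the genome, and it places the pairs apart. The brighter Fabp3 probeset is numbered between those of Hsp90b1 and Stab2, which in RefSeq order lie on either side of the pseudogene Fabp3-ps1, and the other is numbered between those of Pef1 and Snord85, beside Fabp3 itself. The brighter Fabp5 probeset is numbered between those of Trcg1 and Rpp25, away from Fabp5, and the other between those of Zbtb10 and Gm9833, beside Fabp5. RefSeq also lists the Fabp5 pseudogene Fabp5l2. Near-identical copies can share probes, so the signal of the brighter probesets cannot be given to the gene or to a copy of it. The probesets beside the genes had the same order of group means for Fabp5, and the same sign of both differences from the 10 pM group for Fabp3. Fabp4 and Fabp7 had 1 probeset each, numbered beside Fabp9 and Fabp12 and beside Pkib and Smpdl3a.

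The relatives of the 4 members were the other FABPs, the myelin protein Pmp2, and the retinoid binders of the same fold. This list held 11 genes, of which 10 were measured under 1 symbol and 8 lay in the dimmest 30%. In the comparison of 100 pM E2 with vehicle, 1 of the 10 was called higher and 0 lower by limma at a Benjamini-Hochberg adjusted p below 0.05, against 0.446% of all genes called higher and 0.687% lower. The median difference was 0.03, against 0.00490 over all genes. The called gene was Crabp1, which binds retinoic acid in the cytosol. It read 7.62, 7.72 and 7.81 with vehicle, 7.83, 7.66 and 7.81 with 10 pM E2, and 8.16, 8.42 and 8.06 with 100 pM E2. The 100 pM arrays lay above the other 6, and the vehicle and 10 pM arrays overlapped. The difference between 100 pM E2 and vehicle was 0.50 ± 0.091 (SE), a ratio of 1.41, with an adjusted p of 0.0416 by limma. The call was lost when any 1 of 8 of the 9 arrays was left out, with adjusted p between 0.0671 and 0.164, and was kept without 100 pM array 3 (adjusted p = 0.0343). It was also lost when all probesets were tested (adjusted p = 0.133). Between 100 pM and 10 pM E2 the difference was 0.45, with an adjusted p of 0.0754.

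The FABPs outside the 4 members, with Pmp2, were all in the dimmest 30% of genes and none passed the test. Fabp1, the liver form, differed by 0.02 both at 10 pM and at 100 pM E2 from vehicle. Fabp2, the intestinal form, differed by -0.05 and 0.03. Fabp6, which binds bile acids in the ileum, differed by 0.08 and 0.13, with 6 of 9 arrays within 0.01 of the median. Fabp9, the testis form, stayed between 3.65 and 3.67 on all 9 arrays, a probeset with almost no variation. Fabp12 differed by 0.06 and 0.01, and Pmp2 by 0.14 and 0.06. Crabp2, the other retinoic acid carrier of the cytosol, differed by -0.02 and by -0.13 (adjusted p = 0.406 by limma at 100 pM).

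**Figure D2:**
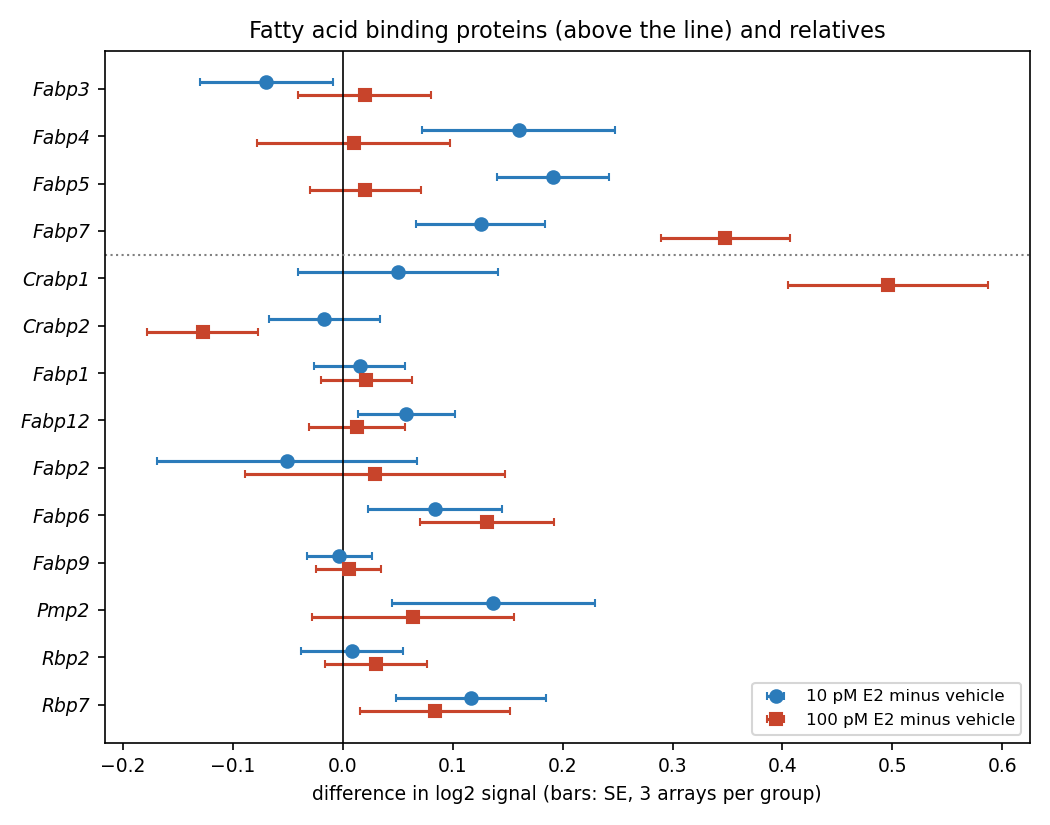
Differences in log2 signal from vehicle at 10 pM and 100 pM E2 for the 4 FABP genes and the 10 relatives measured, with bars for the SE of the limma fit. Crabp1, at 0.50 for 100 pM, and Fabp7, at 0.35, lie farthest to the right.

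Several of these genes lie side by side. In RefSeq order Fabp5, Pmp2, Fabp9, Fabp4 and Fabp12 follow each other, with the gene model Gm9833 between Fabp5 and Pmp2. The differences between 10 pM E2 and vehicle along this run were 0.19 for Fabp5, 0.14 for Pmp2, -0.00314 for Fabp9, 0.16 for Fabp4 and 0.06 for Fabp12. The differences between 100 pM E2 and vehicle were 0.02, 0.06, 0.00531, 0.00988 and 0.01. For Fabp5 these values are of the brighter probeset, which is numbered away from this run. The probeset beside the gene differed by 0.20 at 10 pM and 0.04 at 100 pM. Around the 4 members, 33 different genes lay within 5 places on either side and were measured. Of these, 1 was called higher and 0 lower between 100 pM E2 and vehicle, against 0.446% and 0.687% of all genes. It was Gja1, a gap junction protein (connexin), the fourth gene before Fabp7. Its difference was 0.52 ± 0.073 (SE, adjusted p = 0.0116 by limma), and at 10 pM it was 0.17. The direct neighbours of Fabp7, Pkib and Smpdl3a, differed by 0.03 and 0.00181 between 100 pM E2 and vehicle. None of the 33 was called in the other 2 comparisons.

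The wider lipid pathway was described with 7 lists, the relatives included, which held 114 genes, of which 105 were measured under 1 symbol. Between 100 pM E2 and vehicle 1 of the 105 was called higher (0.952%) and 3 lower (2.86%), against 0.446% and 0.687% of all genes, and the median difference was 0.02, against 0.00490. Between 100 pM and 10 pM E2, 0 were called higher and 4 lower (3.81%), against 0.226% and 0.607% of all genes, with a median of -0.01. Between 10 pM E2 and vehicle limma called 0 of the 105, as it did 0% of all genes in either direction, and 2 of the 105 and 705 of all genes had an unadjusted p below 0.05. The 2 comparisons with 100 pM E2 share their 100 pM arrays. The counts for single lists below rest on these same few genes and are to be read beside these shares of all genes.

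Of 17 genes for uptake and activation of fatty acids, 1 was called lower between 100 pM E2 and vehicle and 2 between 100 pM and 10 pM E2. Slc27a6 belongs to the family of fatty acid transport proteins. It read 7.53, 7.20 and 7.38 with vehicle, 7.33, 7.44 and 7.18 with 10 pM E2, and 6.75, 6.26 and 6.57 with 100 pM E2. All 100 pM arrays lay below all others. Against vehicle the difference at 100 pM was -0.84 ± 0.13 (SE), a ratio of 0.557 (adjusted p = 0.0176 by limma), and at 10 pM it was -0.05. The call against vehicle was lost without vehicle array 1 (adjusted p = 0.0877), vehicle array 3 (0.0864) or 100 pM array 3 (0.0545), and when all probesets were tested (0.0741). Against 10 pM E2 the difference was -0.79 with an adjusted p of 0.0294, which passed without 2 of the 9 arrays in turn and was between 0.0508 and 0.141 without the other 7, and 0.106 over all probesets.

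Vldlr, a receptor that takes up triglyceride-rich lipoproteins, was the other gene called. It read 8.91, 8.84 and 8.85 with vehicle, 9.00, 9.06 and 8.90 with 10 pM E2, and 8.62, 8.50 and 8.71 with 100 pM E2. Its 10 pM mean was the highest, as for Fabp5, but its 10 pM arrays overlapped with vehicle (difference 0.12 ± 0.060, SE). Its 100 pM arrays were below vehicle. Between 100 pM and 10 pM E2 the difference was -0.37 ± 0.060 (SE, adjusted p = 0.0279 by limma), and between 100 pM E2 and vehicle it was -0.26 (adjusted p = 0.109). The call was kept only without 100 pM array 3 (adjusted p = 0.0285) and lost without each of the other 8 arrays in turn (0.0566 to 0.130) and over all probesets (0.0958). The median of the list was 0.05 between 100 pM E2 and vehicle.

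Of 20 PPAR target genes, 2 were called lower in both comparisons with 100 pM E2. Acot2 is a mitochondrial thioesterase that frees fatty acids from coenzyme A. It read 9.67, 9.76 and 9.63 with vehicle, 9.61, 9.58 and 9.59 with 10 pM E2, and 9.33, 9.23 and 9.35 with 100 pM E2. The 100 pM arrays were the lowest of the 9. The difference at 100 pM from vehicle was -0.38 ± 0.046 (SE, adjusted p = 0.00604 by limma) and kept its call without any 1 array. From 10 pM E2 it was -0.29 (adjusted p = 0.0268), a call kept without 3 of the 9 arrays in turn and lost without the other 6 (0.0511 to 0.120) and over all probesets (0.0846). Acot2 has a near-identical paralog, Acot1, so the value of Acot2 is uncertain. The probeset of Acot1 differed from vehicle by 0.04 ± 0.038 (SE) at 100 pM and by 0.04 at 10 pM. Txnip, which binds thioredoxin and limits glucose uptake, read 10.65, 10.69 and 10.71 with vehicle, 10.72, 10.75 and 10.67 with 10 pM E2, and 10.37, 10.20 and 10.37 with 100 pM E2. Its differences were -0.37 ± 0.053 from vehicle (adjusted p = 0.0128) and -0.40 ± 0.053 from 10 pM E2 (adjusted p = 0.0126). The first was lost without any 1 of the vehicle arrays (0.0561 to 0.0692) and the second without any 1 of the 10 pM arrays (0.0570 to 0.0755) or over all probesets (0.0569). The median of the PPAR targets was 0.000143 between 100 pM E2 and vehicle.

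In the other lists limma called 0 genes in all 3 comparisons. Of 12 nuclear receptors for fatty acids and retinoids, Rarb, a retinoic acid receptor, had the smallest p, with a difference of -0.16 ± 0.052 between 100 pM E2 and vehicle (adjusted p = 0.283), followed by Rarg at -0.07 ± 0.037. Pparg, the receptor of fat cell formation, differed by 0.10 ± 0.046 at 10 pM and 0.07 ± 0.046 at 100 pM, and Ppard, the receptor that Fabp5 is known to serve, by 0.04 ± 0.046 and 0.08 ± 0.046 (SE). Both receptors were named after their values had been seen. Of 21 genes of triglyceride storage and lipolysis, the lipid droplet coat gene Plin2 came first at 0.22 ± 0.060 (adjusted p = 0.174), then Lpin1 at 0.06. Of 20 genes of beta-oxidation the first were Eci1 at 0.11 ± 0.050 (adjusted p = 0.460) and Acads at 0.10. Of 15 genes of fatty acid synthesis and desaturation the first were the stearoyl-CoA desaturases Scd1 at 0.24 ± 0.053 (adjusted p = 0.0771) and Scd2 at 0.17 ± 0.044 (adjusted p = 0.154). The medians of these 4 lists between 100 pM E2 and vehicle ran from 0.00578 to 0.02, beside 0.00490 over all genes, and between 10 pM E2 and vehicle from 0.00823 to 0.03, beside 0.00455.

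**Figure D3:**
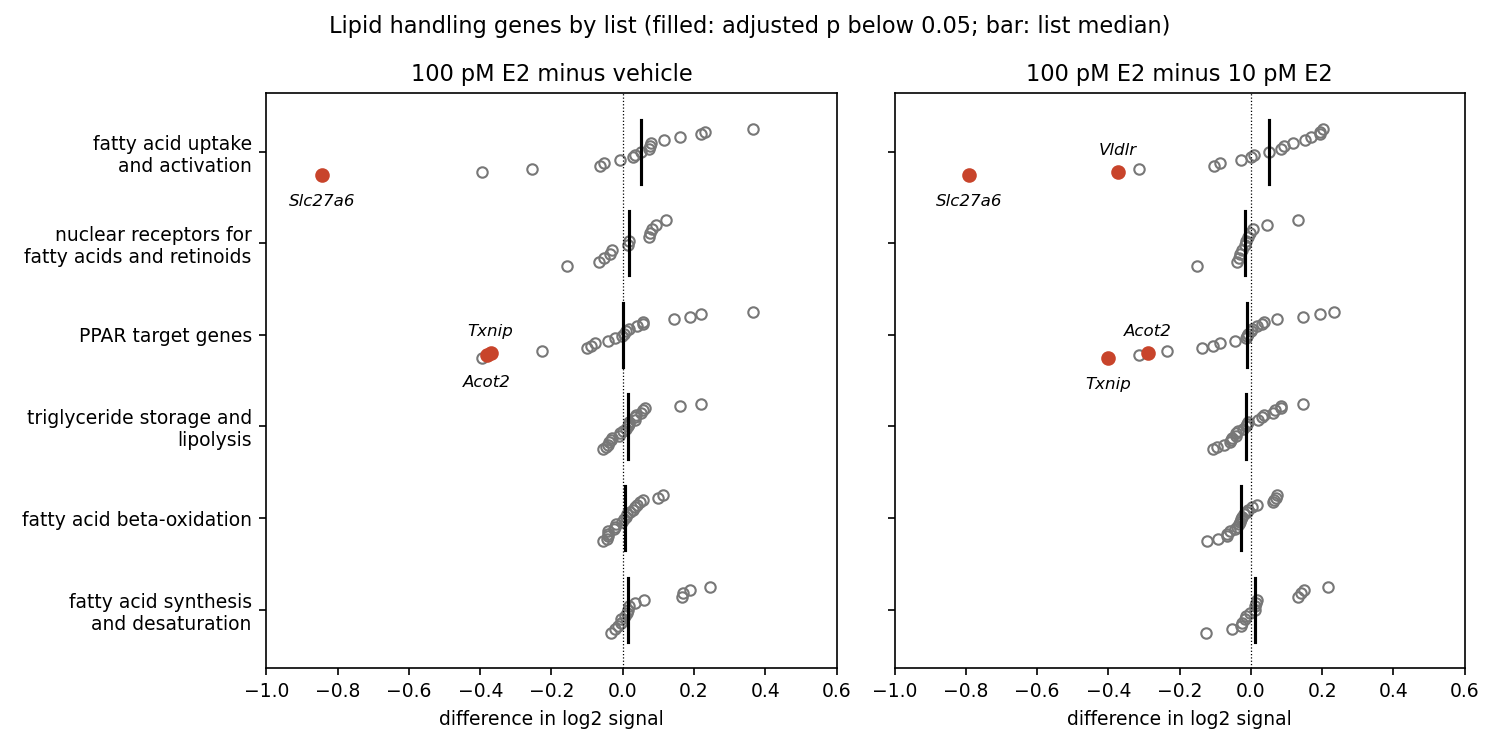
Differences in log2 signal for the measured genes of 6 lipid lists, between 100 pM E2 and vehicle and between 100 pM and 10 pM E2, with filled points for genes at a limma adjusted p below 0.05 and bars for list medians. All filled points lie left of 0, with Slc27a6 at -0.84 and -0.79.

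The genes whose profiles lay nearest to those of Fabp5 and Fabp7 were found by the root mean square (RMS) difference over the 9 arrays, after each gene's vehicle mean was taken off. Fabp5 was nearest to Wdr19, a transport protein of the cilium, with an RMS of 0.0351, then to the histone gene H2bc1 (0.0412), the helicase gene Pif1 (0.0483), the matrix metalloproteinase gene Mmp16 (0.0524) and Nav3 (0.0533). The median gene had an RMS of 0.142 from Fabp5, and a flat profile one of 0.122. The differences between 10 pM E2 and vehicle were 0.17 for Wdr19, 0.20 for H2bc1, 0.13 for Pif1, 0.12 for Mmp16 and 0.13 for Nav3. At 100 pM all 5 lay between 0.00967 and 0.05 above vehicle.

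Fabp7 was nearest to the nonagouti gene a, a pigment signal (0.0622), then to Ramp3, a partner of calcitonin-type receptors (0.0673), Tex36 (0.0673), Myct1 (0.0699) and Gsn, the actin-severing protein gelsolin (0.0747). The median gene had an RMS of 0.228 from Fabp7, and a flat profile one of 0.222. At 100 pM the differences from vehicle were 0.31 for a, 0.34 for Ramp3, 0.27 for Tex36, 0.25 for Myct1 and 0.28 for Gsn. At 10 pM they ran from 0.06 for Gsn to 0.18 for a. Ramp3, Tex36 and Myct1 were, like Fabp7, in the dimmest 30%. None of the 10 genes is in the lipid lists, and the profiles share arrays and normalization, so likeness is given as a description.

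**Figure D4:**
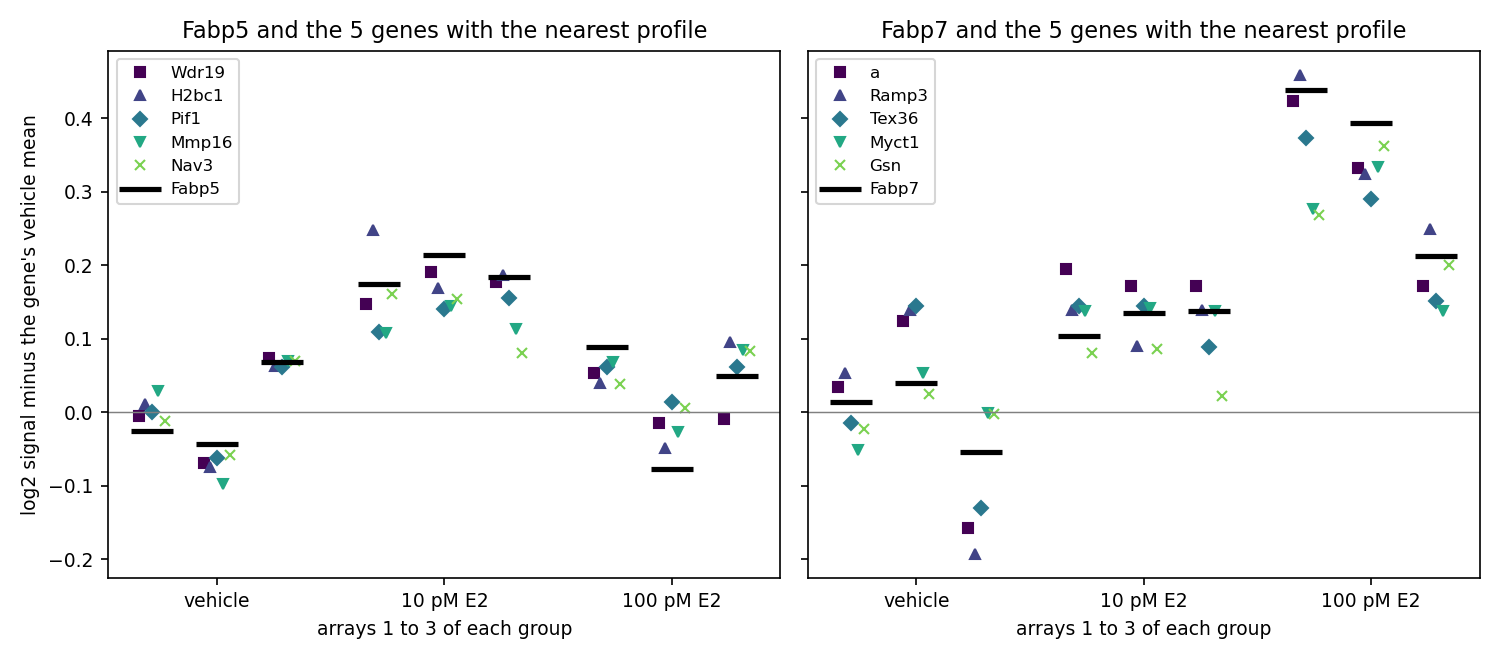
Log2 signal minus the vehicle mean on each of the 9 arrays for Fabp5 and Fabp7 (black bars) and the 5 genes nearest to each (coloured symbols). Fabp5 and its nearest genes have their highest group mean with 10 pM E2, and Fabp7 and its nearest genes with 100 pM E2. Single arrays of some nearest genes overlap between these doses, as for Nav3 and a.

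Since FABPs mark several cell types, marker genes of 7 types were read on the same arrays. In bulk samples fewer cells of a type and less RNA per cell cannot be told apart. All 15 mesenchyme markers were measured, with none in the dimmest 30%, and their mean log2 level was 9.84 to 9.87 with vehicle, 9.87 to 9.88 with 10 pM E2 and 9.77 to 9.81 with 100 pM E2. At 100 pM 4 of them, Col3a1, Dcn, Lum and Pdgfra, were called lower than vehicle, against 0.687% of all genes. The others were not called and ran from -0.09 (Hoxd13) to 0.22 (Fgf10). The list median was -0.02, so the lower list mean does not stand for every marker. The 11 measured adipocyte markers, for which Fabp4 is a usual companion, had means of 5.67 to 5.72, 5.71 to 5.75 and 5.73 to 5.76 in order of dose, with 0 called in any comparison and Adipoq and Lep in the dimmest 30%. The 100 pM means of this list lay above the vehicle range, with Lpl as its largest difference (0.37, adjusted p = 0.109 by limma). The other markers ran from -0.04 (Lep) to 0.12 (Retn), and the list median was 0.00504. The 100 pM arrays of Fabp4 overlapped with vehicle.

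The 16 macrophage markers had means of 5.66 to 5.82 with vehicle, 5.62 to 5.75 with 10 pM E2 and 5.51 to 5.56 with 100 pM E2. All 100 pM arrays were below all others, and 1 marker, C1qb, was called lower at 100 pM (-0.51, adjusted p = 0.0433 by limma). The 14 endothelial markers had means of 6.17 to 6.23, 6.16 to 6.18 and 6.12 to 6.16. Emcn was called higher and Kdr lower at 100 pM than with vehicle, against 0.446% and 0.687% of all genes. The 10 measured markers of glia and Schwann cells, the cells in which Fabp7 is best known, had means of 5.52 to 5.54, 5.47 to 5.58 and 5.53 to 5.55, with 0 called and with overlapping groups. The 15 epithelial and 12 muscle markers had 0 calls against vehicle. Epithelial means ran from 5.85 to 5.90, 5.84 to 5.88 and 5.86 to 5.98. Krt18 was called higher at 100 pM than at 10 pM, against 0.226% of all genes. Muscle means were 6.65 to 6.74, 6.66 to 6.73 and 6.68 to 6.69. The table holds no detection calls and no value at 0, so absence of a cell type cannot be read from it. The part of these cell types in the FABP signals was not tested.

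**Figure D5:**
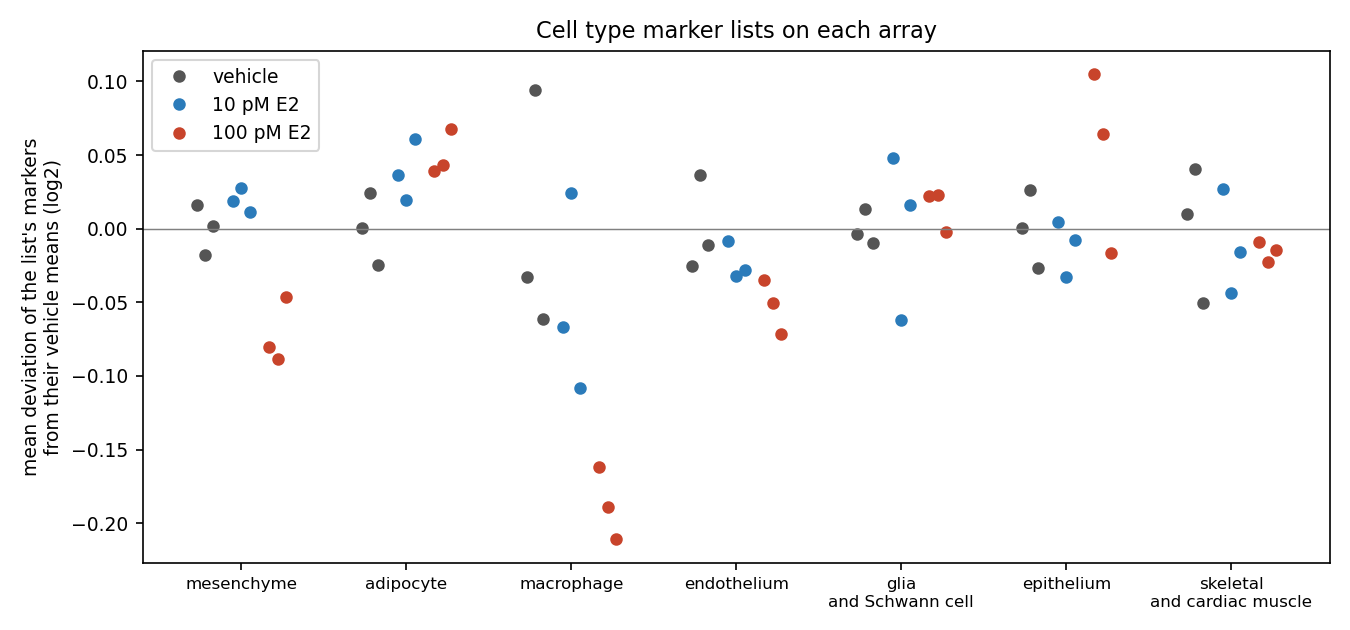
Mean deviation of the log2 signals of each marker list from their vehicle means on the 9 arrays, by dose of E2. The list means of macrophage, mesenchyme and endothelial markers are lowest on the 3 arrays with 100 pM E2. Single genes weigh on these means, as Lyz2 at -0.88 does for macrophages, and Kdr at -0.98 and Emcn at 0.82 for endothelium. The glia and Schwann cell markers overlap between doses.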

How the data were processed

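Total RNA from 9 samples, 3 for each of vehicle, 10 pM and 100 pM E2, was hybridized to whole-transcript arrays (Affymetrix Mouse Gene 1.0 ST). The deposited table holds log2 signals per probeset, which the authors made with Affymetrix operating software (GCOS) and the Gene Expression Console. The log2 scale was read from the values, and the normalization method and versions are not given in the sources used here. Array medians ran from 6.175 to 6.202, so centring on genes had not been done. Correlations over genes were 0.9974 to 0.9982 within groups and 0.9963 to 0.9982 between groups. No scan date or slide was used here, so no batch could be checked, and precision is limited by having 3 arrays in a group.

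Of 35556 probesets, 21789 carried 1 symbol in an old platform annotation, 1621 several and 12146 none here. Current symbols came from 21698 matches to RefSeq (GRCm38.p6). For 999 genes with over 1 probeset the brightest was used, which left 19938 genes. Linear models from limma 3.58.1 (R 4.3.3), with a mean for each group and default eBayes moderation, took in all 9 arrays. Tests were two-sided, and a gene was called where its p, adjusted by Benjamini-Hochberg over all genes, was below 0.05. The analysis of variance of the study was an alternative. Other alternatives changed the scaling, the filter on dim genes, the probesets, the moderation, the array weights, the arrays in the fit and the replicate block. The second probesets of Fabp3 and Fabp5 were added after seeing the data. The replicate numbers were not treated as pairs, since 1 of 9 same-numbered pairs had deviations that correlated above 0.1 (-0.112 to 0.200).

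The members and lists were chosen with earlier results of these data known. Genes were named as follows: the members and other FABPs with Pmp2, the called genes of each lipid list (at most 6) or else the 2 of smallest p between 100 pM E2 and vehicle, the 5 nearest profiles of Fabp5 and Fabp7, and called neighbours. Figures were drawn with matplotlib 3.10.9 in Python 3.11.15. The lipid list genes beyond the 105 measured are not analysed here.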

Additional observations from a re-analysis of the deposited data

How the results depend on the processing

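The differences of the 4 FABP genes moved by less than the spread between replicates (pooled SD) under all alternatives run. For many alternatives this was fixed in advance, so it is no sign of stability. Leaving out 1 array from a group of 3 cannot move a difference by more than that SD. The replicate block, the moderation and the filter on dim genes leave the difference of a gene unchanged. For Fabp7, 100 pM E2 minus vehicle was 0.348 to 0.364 under other settings and 0.303 to 0.416 with 1 array left out, and it has no value without the dimmest 30% of genes, to which it belongs. For Fabp5, 10 pM minus vehicle was 0.181 to 0.196 and 0.170 to 0.226. The differences near 0 between 100 pM E2 and vehicle changed sign in 2 alternatives for Fabp3, 5 for Fabp4 and 2 for Fabp5. With the replicate block, limma called 0 list genes higher between 100 pM E2 and vehicle, 2 lower between 100 pM and 10 pM E2, and 1 gene of all between 10 pM E2 and vehicle. The calls lost under the block were those of Crabp1 against vehicle (adjusted p = 0.103) and of Vldlr (0.0778) and Acot2 (0.0822) against 10 pM E2. Of the 9 arrays, 3 correlated best with arrays of their own number.

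Counts of called genes depended on the fit. Between 100 pM E2 and vehicle 226 genes were called. The count was 343 without the dimmest 30%, 349 with trended robust moderation, 119 over all probesets, 10 with the compared groups alone and 88 to 259 with 1 array left out. Between 100 pM and 10 pM E2 there were 166, and under the same settings 291, 284, 30, 1 and 30 to 178. For any difference among the groups there were 168, with 310, 308, 65 and 85 to 176, while analysis of variance gave 1 after Benjamini-Hochberg adjustment and 530 at an unadjusted p below 0.01. The list genes called higher between 100 pM E2 and vehicle (1) became 2 without the dimmest 30%, 2 with trended robust moderation, 0 over all probesets and 0 to 2 with 1 array left out. Those called lower (3) were 2 over all probesets and 1 to 3 with 1 array left out. Between 100 pM and 10 pM E2 those called higher (0) became 1 without the dimmest 30%, 1 with trended robust moderation and 0 to 1 with 1 array left out, and those called lower (4) became 0 over all probesets and 0 to 3 with 1 array left out. The cause of these shifts was not tested. Of 136 checks of single called genes, 89 kept the call, 47 lost it and 0 changed direction. Fabp7 and 17 of the 105 list genes were in the dimmest 30%, where signal over background limits what can be measured.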
